A study of Bombyx mori with 4 samples.

Results

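The regions described here have an accessibility peak in 1 library of each of 2 silkworm tissues and none listed in the other 2 libraries. A missing peak is not a measurement of closed chromatin. ATAC-seq, in which a transposase cuts and tags accessible DNA, was run on larval nuclei of wild-type Bombyx mori of strain P50, titled L5D3, with 2 libraries from brain and 2 from fat body. The libraries carry the numbers 1 and 2 within each tissue and are named brain 1, brain 2, fat body 1 and fat body 2. No treatment separates them. The labels do not tell if a tissue's libraries are from separate animals. Peaks of the 4 deposited lists were merged wherever they shared at least 1 bp. The members were chosen by presence in the lists: a merged region had to overlap a peak of brain 2 and a peak of fat body 2 and no peak of brain 1 or fat body 1, and had to lie on one of the 28 long sequences (BHWX01000001.1 to BHWX01000028.1, numbered 1 to 28 below). This gave 4530 members of 130309 merged regions in all, and of 129562 on the long sequences, or 3.50% of the latter. Since presence made the choice, neither presence nor peak strength is tested below, and regions are not replicates, so intervals cover counting only.

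Open chromatin marks stretches of DNA that nucleosomes leave free, mostly promoters and enhancers. As a general background, sites open in unlike tissues are often promoters of genes that all cells use, while sites open in 1 tissue are more often enhancers. The brain is built of neurons and glia, and the fat body combines roles that vertebrates divide between liver and adipose tissue. Silkworm chromosomes are holocentric, that is, they have no single centromere and attach to the spindle along their length. Genes at these regions were not analysed here, nor were tissue markers, because the only gene table at hand belongs to another assembly. Regions are therefore given by position and without sequence letters.

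The lists differ in length. Brain 1 had 36420 peaks, brain 2 had 11572, fat body 1 had 107057 and fat body 2 had 14752. Values of −log10 q began at 3.65 for brain 1, 3.18 for brain 2, 3.69 for fat body 1 and 5.04 for fat body 2. By −log10 p, brain 1, brain 2 and fat body 1 all began between 5.01 and 5.03, and fat body 2 at 6.69. Read depth is not known. The lowest local background recovered from the summits, in units of pile-up (reads or fragments covering a base), was 1.38 for each number 1 list, 0.558 for brain 2 and 0.534 for fat body 2. The division that the rule makes runs along library number together with this background and with list length, and these cannot be told apart. Left without brain 2, the rule could require only a fat body 2 peak, and it gave 8614 regions. Peak names of brain 1 also carry another stage code than its title. Members held 39.9% of the long-sequence peaks of brain 2 and 31.4% of those of fat body 2. Among the 7536 long-sequence regions present in both number 2 lists, members were 60.1%. The other 3006, which also overlapped a number 1 peak, are called re-found regions. With a −log10 q of 10 required of both number 2 peaks, 2761 regions met the rule, and 2379 did so when number 1 peaks had to be over 1 kb away. The count was 5698 when each list was held to its 11572 best peaks. It was 5825 when a list had to cover 50% of a region to count as present.

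The number of members on a sequence did not follow its length. The 28 sequences held from 114 to 257 members, with a median of 158, although they reached from 8.36 to 21.5 Mb. Over these 28 sequences Pearson's r of members with length was -0.13 and Spearman's rho -0.25. With brain 2 left out, when only a fat body 2 peak was required, the sign of r turned, to 0.050. The re-found regions also followed length only loosely, with an r of 0.17, or 0.38 without sequence 1. All regions with a brain 2 peak had an r of 0.44 and all with a fat body 2 peak 0.20. Regions with a brain 1 peak, by contrast, had an r of 0.92 with length and regions with a fat body 1 peak an r of 0.86. The points of each class share their libraries and the sequences, so these coefficients are descriptions. The short sequences were accordingly dense in members. The 5 shortest, 53.7 Mb together, held 870 members or 16.2 per Mb, and the 5 longest, 100.3 Mb together, held 828 or 8.26 per Mb. For all merged regions the same groups had 305 and 273 per Mb. Re-found regions had 8.94 and 5.35 per Mb.

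**Figure D1:**
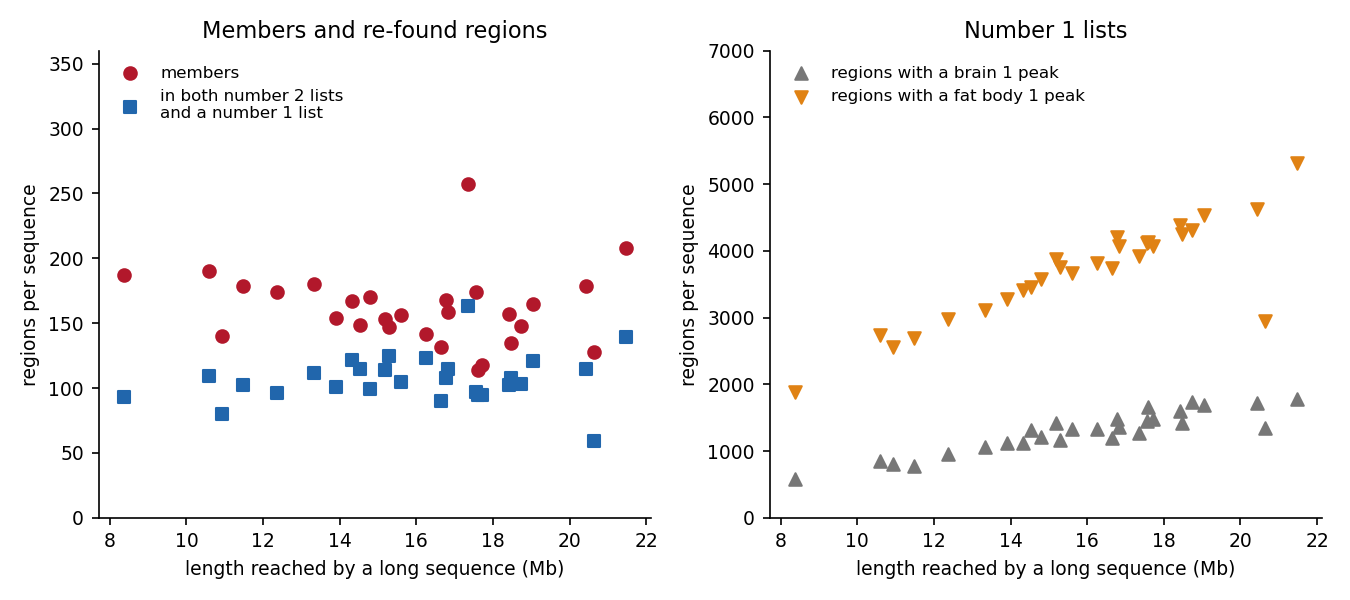
Regions per long sequence against the length it reached, in Mb, 1 point per sequence (28 sequences). Left, members (circles) and re-found regions (squares); right, regions with a peak of brain 1 (upward triangles) or fat body 1 (downward triangles). Members stay between 114 and 257 whatever the length, while the number 1 lists climb with it, sequence 1, which reached 20.6 Mb, lying low for fat body 1.

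Sequence 2 was the densest, with 187 members on 8.36 Mb or 22.4 per Mb. Sequence 28 followed with 190 members, 18.0 per Mb, and sequence 26 with 179, 15.6 per Mb. The lowest densities were 6.20 per Mb on sequence 1, with 128 members, 6.48 on sequence 10, with 114, and 6.66 on sequence 13, with 118. The highest density was thus 3.60 times the lowest. Other classes with number 2 peaks were also uneven: the ratio was 3.89 for re-found regions, 4.86 for the 380 regions found in brain 2 alone and 2.81 for those found in fat body 2 alone. For all merged regions it was 1.69, and sequence 1 was the lowest there too, with 193 per Mb. The largest count, 257, was on sequence 24, at 14.8 per Mb. Density and share are different measures: members made up 68.4% of the regions of both number 2 lists on sequence 1, the highest value of any sequence, although their density there was the lowest. On sequence 2 this share was 66.8%, and the lowest, on sequence 8, was 53.6%. Per Mb, sequence 1 also had the fewest regions with a brain 1 peak, 65.2, and with a fat body 1 peak, 143. A link between these densities and the share was not tested.

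Within a sequence the members lay away from the middle and away from the outermost tips. Each sequence was cut into 10 equal parts from its start to its last peak. Members were most frequent in the second part, with 13.1% of them, and in the ninth, with 14.1%. They were least frequent in the fifth, with 6.42%, and the sixth, with 7.35%. All merged regions stayed between 9.75% and 10.3% in every part. The 2 middle parts together held 624 members or 13.8% (exact binomial 95% interval 12.8 to 14.8). Re-found regions had 17.5% there (16.2 to 18.9), and the class held by both number 1 lists but no number 2 list had 22.0% (21.3 to 22.6). The whole lists lay in the same order: 15.6% of fat body 2 peaks and 17.2% of brain 2 peaks were in the middle 20%, against 20.1% in fat body 1 and 20.8% in brain 1. A low middle share recurred over most sequences, being below an even 20% in 26 of 28. It ran from 7.38% on sequence 25 to 23.5% on sequence 2, with a median of 13.3%, and was 20.7% on sequence 27. In 27 of 28 the 2 middle parts held fewer members than the second and ninth parts together (on sequence 21 the counts were equal). Those parts were picked from the summed counts of the same members, so this last comparison is partly built in.

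**Figure D2:**
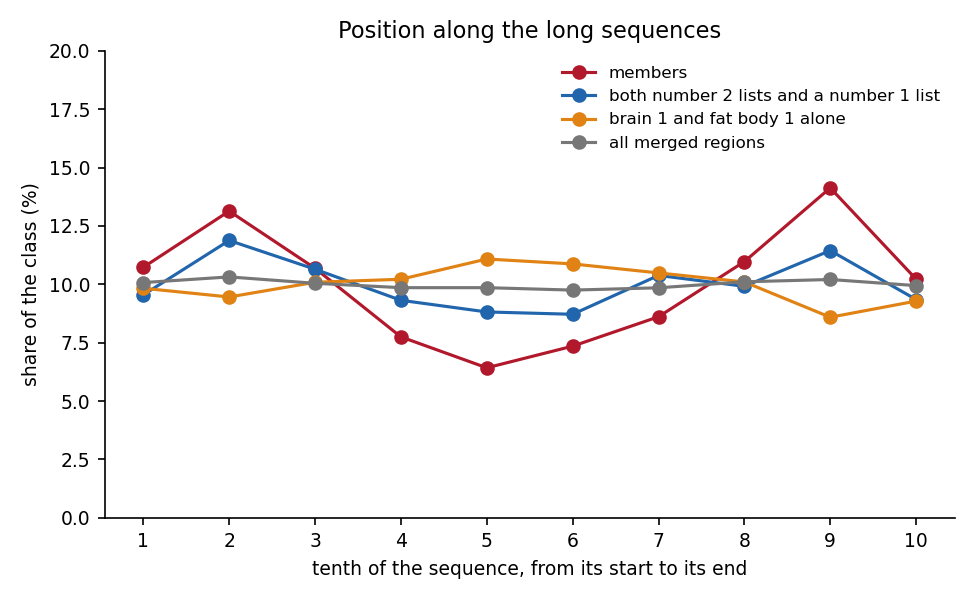
Share of each class, in percent, in each of 10 equal parts of the long sequences, summed over 28 sequences. Members dip to 6.42% in the fifth part and peak at 13.1% and 14.1% in the second and ninth, re-found regions do so less, the class of both number 1 lists without a number 2 list leans the other way, and all merged regions are flat.

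Measured in Mb from the nearer end, member density rose inward and then fell. It was 2.50 per Mb in the outermost 0.1 Mb, with 14 members, and 6.52 from 0.1 to 0.5 Mb. It reached 13.0 per Mb from 0.5 to 1 Mb and 14.6 from 1 to 2 Mb, was 12.9 from 2 to 4 Mb and dropped to 7.89 farther in. The mean over the long sequences was 10.2 per Mb. The same rise and fall was seen in other classes with number 2 peaks. From 1 to 2 Mb the density was 1.44 times the class mean for members, 1.44 for brain 2 alone, 1.32 for fat body 2 alone and 1.16 for re-found regions. Beyond 4 Mb these ratios were 0.77, 0.74, 0.81 and 0.91. Because the zones cancel, the share of members within 1 Mb of an end, 11.5% (10.6 to 12.5), was close to the 12.6% of the length that lies there. Within 0.5 Mb of an end the share was 3.53% (3.01 to 4.11), where 6.30% of the length lies and 6.28% of all merged regions were found. Sequence ends were taken as base 1 and the end of the last peak of any list. By this definition the member nearest to an end was the last region of sequence 27, from 10927960 to 10929521. It was 32.8-fold enriched in brain 2 and 38.3-fold in fat body 2. Fold is the ratio, given by the authors' peak caller, of summit pile-up to local background, with 1 added to each. The next, on sequence 5 from 19034532 to 19034971, lay 667 bp from the end, with 4.00-fold and 10.7-fold enrichment.

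Members were spread along every long sequence. The gap between neighbouring members had a median of 58097 bp (order-statistic 95% interval 55296 to 61032), with quartiles of 23402 and 123567 bp. The longest gap was 1142934 bp. The SD of the gaps was 1.20 times their mean, against 1.24 for regions of brain 2 alone and 1.17 for fat body 2 alone. It was 1.10 for the class of both number 1 lists without a number 2 list, 1.06 for re-found regions and 0.99 for all merged regions. Over 430 full bins of 1 Mb the members had a mean of 10.3 and a variance of 2.74 times the mean, and no bin was empty. This ratio was 2.19 for regions of fat body 2 alone, whose mean per bin was 9.14. It was 1.07 for brain 2 alone, 1.42 for re-found regions and 2.57 for the class of both number 1 lists without a number 2 list. For all merged regions, whose mean per bin was 291, it was 3.27. The densest bin, with 31 members, was from 1000001 to 2000000 on sequence 2. Another bin of sequence 2, from 7000001 to 8000000, held 29. A gap of at most 10 kb separated 540 neighbours, or 12.0%, against 9.65% for the 4027 regions of fat body 2 alone and 6.41% for the 3006 re-found regions. These classes are smaller, which by itself lengthens gaps. The median gap was 31404.5 bp without brain 2, when only a fat body 2 peak was required. It was 96803 bp with a −log10 q of 10 required of both number 2 peaks and 107723 bp with number 1 peaks over 1 kb away. Each of these settings changes the number of regions.

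When members at most 10 kb apart were joined into runs, 3530 stood alone and 397 formed pairs. There were 51 runs of 3, 8 of 4, 3 of 5 and 1 of 6. The run of 6 spanned 34553 bp on sequence 14, from 3794358 to 3828910. Its members were from 475 to 866 bp wide, with 4.25-fold to 8.32-fold enrichment in brain 2 and 5.64-fold to 14.4-fold in fat body 2, and 6 regions of other classes lay among them. The tightest run of 5 spanned 14584 bp on sequence 19, from 11574252 to 11588835. Its last member, from 11588112 to 11588835, stood out within the run with 18.0-fold enrichment in brain 2 and 28.1-fold in fat body 2, the highest values of the run. Another run of 5, on sequence 18 from 14317155 to 14338672, ranged from 4.67-fold to 8.06-fold in brain 2 and from 5.60-fold to 16.3-fold in fat body 2. Read along the sequence, the region after a member was itself a member in 3.80% of cases, against 3.50% after any region, and at most 4 members stood in an unbroken row. That row, on sequence 14 from 2087833 to 2103474, spanned 15642 bp.

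Just under 50% of members had a number 1 peak within 1 kb. The median distance from a member to the nearest peak of either number 1 list was 1088 bp (1046 to 1138), and 2151 members, or 47.5%, had one within 1 kb. To the nearest brain 1 peak the median was 3948 bp and to the nearest fat body 1 peak 1332.5 bp. The nearest peak was of fat body 1 for 3412 members, or 75.3%, and that list supplies 74.6% of number 1 peaks on the long sequences. It preceded the member in 2259 cases and followed it in 2271. These neighbours lay near the middle of their lists by −log10 q, at median percentiles of 45.3 for fat body 1 and 47.8 for brain 1. Regions of fat body 2 alone had a median distance of 1158 bp (1111 to 1214), and those of brain 2 alone 1029.5 bp (883 to 1159). Per sequence the members' median ran from 850.5 bp on sequence 19 to 1347 bp on sequence 15. The distance varied with how many number 1 peaks were listed. It was 4047 bp when fat body 1 was left out and 11002.5 bp when each list was held to its 11572 best peaks. Changing the overlap rule, which alters the set of members, also moved the distance. It was 617 bp when a list had to cover 50% of a region to count as present. With number 1 peaks within 1 kb barred it was 2017 bp, by construction.

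Beyond the overlap that the rule forbids, number 1 peaks were about as dense beside members as elsewhere. From 1000 to 2000 bp from a member's centre, fat body 1 had 0.241 peak midpoints per kb and member, or 1.00 times its mean over the long sequences, and brain 1 had 0.0792, or 0.97 times. From 3000 to 6000 bp these ratios were 0.97 and 0.94. Around re-found regions they were 0.82 and 0.96 from 1000 to 2000 bp, and 0.77 and 0.78 from 3000 to 6000 bp.

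**Figure D3:**
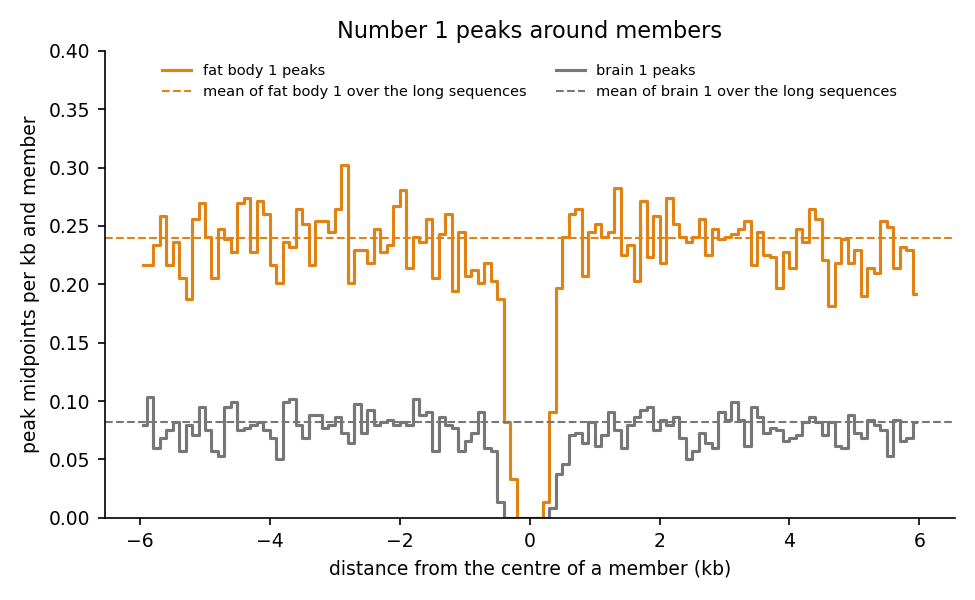
Midpoints of fat body 1 peaks (upper line) and brain 1 peaks (lower line) per kb and member, in steps of 100 bp, up to 6 kb on each side of the centre of 4530 members; dashed lines are the means over the long sequences. The notch at the centre follows from the rule, and outside it both lines run close to their means of 0.240 and 0.0816.

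The rule has a sharp edge. There were 4 members that touched a number 1 peak without sharing a base, and 160 that lay within 50 bp of one. Among re-found regions, 189 shared 50 bp or fewer with number 1 peaks. Members just inside the edge had a median fold of 5.60 in brain 2 and 9.17 in fat body 2, and regions just outside had 6.13 and 9.95. Touching members included one on sequence 17 from 4011878 to 4013401, 14.1-fold in brain 2 and 18.7-fold in fat body 2, next to a brain 1 peak. Another, on sequence 1 from 14235284 to 14236373, had 6.83-fold and 13.8-fold enrichment. One on sequence 4 from 15277656 to 15278428, measured 5.78-fold and 11.1-fold. An overlap of 1 bp kept out a region on sequence 13 from 5149719 to 5150257, which measured 4.97-fold and 8.69-fold.

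The farthest members shared a single stretch. Only 29 members, or 0.64%, had no number 1 peak within 10 kb. The largest distances, 138812, 103319 and 96665 bp, all belonged to a stretch of 279 kb on sequence 6, from 15022787 to 15301694, in which neither number 1 list had a peak. It held 6 members and 1 other region. Fold enrichment of these 6 ran from 5.14 to 17.0 in brain 2 and from 8.47 to 21.0 in fat body 2. The farthest member, from 15162145 to 15162882, had 9.63-fold and 12.4-fold enrichment. Its summit pile-up was 14 in brain 2 and 18 in fat body 2, both over the lowest background of the list. Local background stayed at or below 0.646 in brain 2 and 1.04 in fat body 2 at all 6, where the medians over members were 3.65 and 4.32. Whether few reads could be placed in this stretch was not tested. Outside it the largest distance was 50685 bp, on sequence 17.

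Members were of moderate and rather even width. Their median was 638 bp (628 to 644), the quartiles were 473 and 770 bp, and the range was 238 to 2927 bp. All merged regions had a median of 233 bp, where the fat body 1 list alone had a median peak of 166 bp, and re-found regions had 788 bp. Members covered 2.95 Mb in total. The median per sequence stayed between 587.5 and 674 bp. Only 66 members, or 1.46%, reached 1500 bp, against 5.85% of re-found regions. The widest, 2927 bp on sequence 11 from 16924041 to 16926967, was a chain of overlapping peaks, the strongest of them 910 bp wide for brain 2 and 1817 bp for fat body 2, with 6.36-fold and 8.27-fold enrichment. The next were 2334 bp on sequence 19 from 13585490 to 13587823 (5.10-fold and 7.24-fold) and 2302 bp on sequence 9 from 5274108 to 5276409 (20.1-fold and 24.1-fold).

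Merging adds the number 1 peaks to the width of re-found regions. Among regions of both number 2 lists, the share of members fell from 86.2% (83.6 to 88.5) under 400 bp to 27.3% (21.8 to 33.3) at 1500 bp or more. By the span of the strongest brain 2 and fat body 2 peaks alone, the share was 62.1% (59.1 to 65.0) under 400 bp, 61.4% (59.5 to 63.3) from 600 to 799 bp and 45.7% (37.3 to 54.3) at 1500 bp or more. On that measure the median was 638 bp in members and 657 bp in re-found regions.

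**Figure D4:**
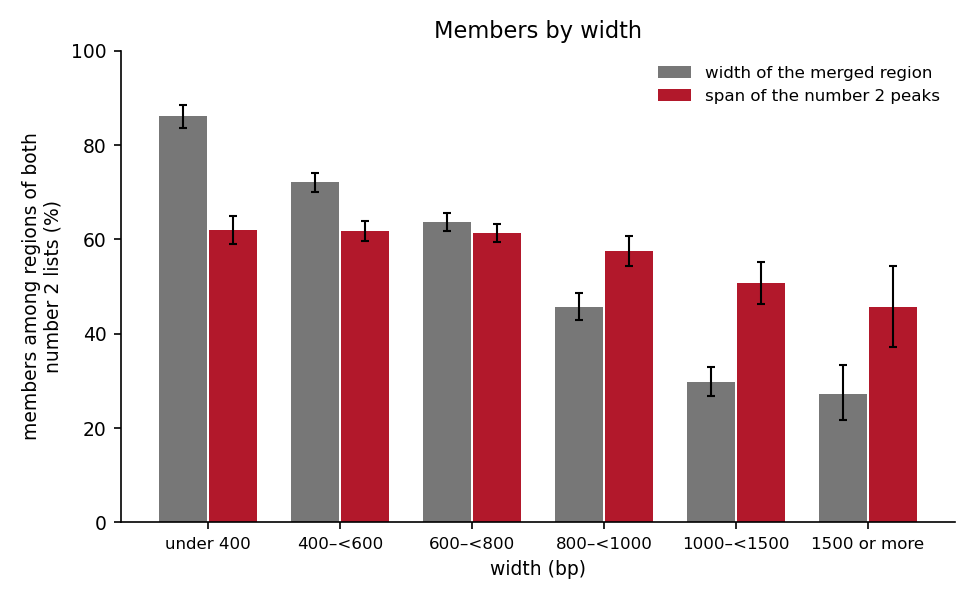
Members as a percentage of the 7536 long-sequence regions present in both number 2 lists, by width in bp; bars start at 0 and error bars are exact binomial 95% intervals. By width of the merged region (grey) the share falls from 86.2% to 27.3%, and by the span of the number 2 peaks alone (red) from 62.1% to 45.7%.

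Members came from the whole range of peak strength in their own lists. Their peaks had a median fold of 5.94 in brain 2 (quartiles 4.68 and 7.90) and of 9.40 in fat body 2 (6.88 and 13.5). The median over all long-sequence peaks was 5.38 in brain 2 and 8.54 in fat body 2. Re-found regions had 5.97 and 10.0, and peaks that the other number 2 list lacked had 4.57 and 7.34. By rank of −log10 q within the list, the median member stood at percentile 54.0 in brain 2 and 57.1 in fat body 2. Among regions of both number 2 lists, they made up 71.3% (67.3 to 75.04) of the weakest 10% of brain 2 and 57.4% (54.3 to 60.6) of the strongest. In fat body 2 the same shares were 71.0% (65.8 to 75.7) and 59.1% (56.0 to 62.1). The lowest share was not at the strong end but in the 10% below it, with 48.8% (45.6 to 52.1) in brain 2 and 53.5% (50.3 to 56.7) in fat body 2. Pile-up at the summit had a median of 27 in brain 2 and 47 in fat body 2, over a median background of 3.65 and 4.32. Across members, distance to a number 1 peak had a Spearman's rho close to 0 with strength: 0.015 for the fold in brain 2 and -0.0039 in fat body 2 (n = 4530).

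The strongest members were among the strongest peaks of either list. The first lay on sequence 23 from 11887596 to 11888839. It was 37.2-fold enriched in brain 2, with a −log10 q of 662 and the highest rank of the list, and 44.5-fold in fat body 2, with a −log10 q of 2395. Its summit pile-up was 567 in brain 2 and 1944 in fat body 2, while a brain 1 peak of percentile 15.5 lay 519 bp away. The background around it, 14.3 and 42.7, was also far above the members' medians.

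The second lay on sequence 22 from 4313122 to 4313942, with 28.5-fold and 41.3-fold enrichment in brain 2 and fat body 2 and summits 2 bp apart. The third was on sequence 20 from 6875976 to 6876774 (22.9-fold and 38.6-fold). The fourth, on sequence 2 from 2049657 to 2050987, had 36.7-fold and 44.3-fold enrichment and its summit at 2050321 in both lists. The fifth, on sequence 16 from 10310789 to 10311866, had 34.3-fold and 42.4-fold enrichment. These 5 lay on different sequences, and none was closer than 449 bp to a number 1 peak. The 100 strongest members fell on 27 of the 28 sequences, and 49 of them had a number 1 peak within 1 kb, close to the 47.5% of all members.

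Strength in brain 2 and in fat body 2 went together across members. Spearman's rho was 0.68 for fold and 0.71 for −log10 q (n = 4530 regions), against 0.55 and 0.57 over the 3006 re-found regions. The local background had a rho of 0.66 across members. It was higher in stronger members, with a median in fat body 2 of 3.78 in the weakest 1133 by mean percentile and 5.78 in the strongest 1133. Of the 453 strongest members by each list, 335 were the same regions, or 74.0%. Only 2 of those 453 in brain 2 fell in the weaker 50% in fat body 2, and 15 in the reverse comparison. All points share the same libraries, so no p is given.

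**Figure D5:**
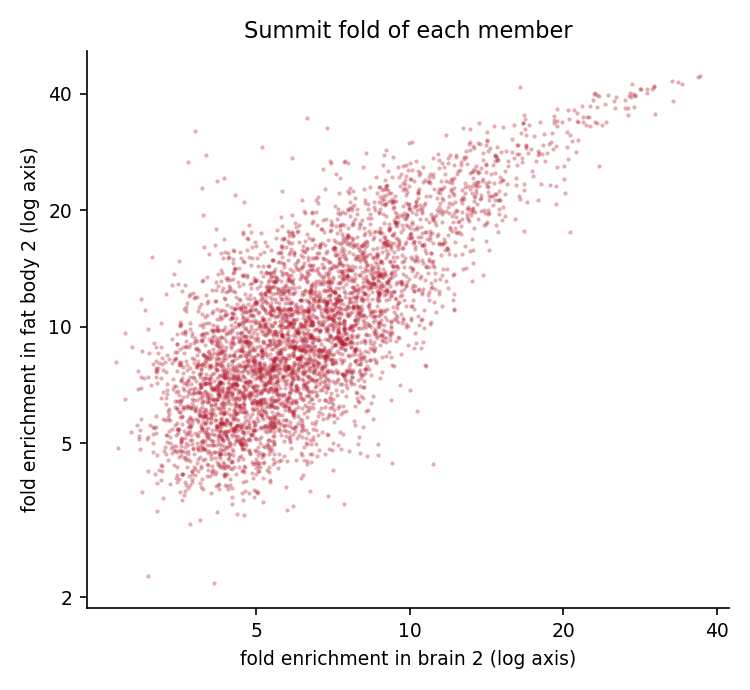
Summit fold of each of the 4530 members in brain 2 and in fat body 2, both on log axes, 1 point per region. Points run from lower left to upper right, where the strongest member stands at 37.2-fold and 44.5-fold; Spearman's rho is 0.68.

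Within a member the brain 2 and fat body 2 peaks matched closely in extent. Some overlap is set by the rule, and the overlap values below have no re-found value beside them. In 4519 members, or 99.8%, each list had 1 peak. The bases common to both strongest peaks made up a median of 91.3% of the region, and at least 50% in 4273 members. The brain 2 peak lay wholly inside the fat body 2 peak in 56.7% of members, the reverse held in 10.3%, and the fat body 2 peak was the wider in 77.0%. The signed difference between edges had a median of 11 bp at the start and 13 bp at the end, with brain 2 inward of fat body 2; members went both ways. Summits were a median of 82 bp apart (78 to 86), with 56.2% within 100 bp and 37 at the same base. In re-found regions the median was 91 bp, with 53.5% within 100 bp. Summits were closer in stronger members: the median was 104 bp in the weakest 1133 by mean percentile and 53 bp in the strongest 1133. The median distance to a number 1 peak in these groups was 1087 and 1060 bp.

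The same combination of lists was also found outside the long sequences. On unplaced sequences, which the rule leaves out, 147 of 747 merged regions overlapped peaks of both number 2 lists and no number 1 peak, or 19.7% (16.9 to 22.7).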

How the data were processed

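Each of the 4 ATAC-seq libraries is represented by 1 deposited peak list. Among the submitters' processing notes are MACS2 2.1.0, deepTools 3.3.0, Picard, Bowtie2 and Trim Galore; the sources used here do not give the genome build. Names in the deposited peak lists show a p cut for brain 2 and fat body 1, and for fat body 2 a q cut with mapping-quality and duplicate filters. The deposited lists give, per peak, an integer score (not used), the fold enrichment ratio, −log10 p and −log10 q at the summit; the authors listed peaks per library. Read depth is unknown.

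Peaks were merged at 1 bp of overlap with Python 3.11.15, numpy 2.4.6, pandas 2.3.3 and scipy 1.17.1. Pile-up and background were recovered from fold and −log10 p (relative tolerance 2e-05); 1 whole pile-up was found for 100% of peaks. Merging, distances and recovery were tested on simulated data. Intervals are exact binomial, or order-statistic for medians. The members, lists and measures were chosen with earlier results of these data known. Named regions were the 5 best by mean percentile, the 3 widest, the 3 nearest to and 3 farthest from a number 1 peak, the 2 nearest to an end, the 3 longest runs and the 3 densest and 3 sparsest sequences; any other region or sequence named was picked after its values were seen. No test was made, since the members were chosen by readout; the alternatives are other cuts, overlaps, peak extents and lists, and leaving out a library or sequence 1.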

Additional observations from a re-analysis of the deposited data

Results flagged for a closer look

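On unplaced sequences, which lie outside the rule, 147 regions overlapped peaks of both number 2 lists and no number 1 peak. They stood out as peaks in data that the comparisons above do not use. They were 19.7% of the 747 unplaced regions (16.9 to 22.7), where the same combination was 3.50% of regions on the long sequences (3.40 to 3.60). The regions lay on 88 of the 180 unplaced sequences that had any peak, and they made up 89.1% of the 165 unplaced regions present in both number 2 lists, where the long sequences had 60.1%. None of these sequences reached beyond 0.288 Mb. The difference in share was not tested. The number 2 lists as a whole also had a larger part of their peaks on unplaced sequences. Of 11572 brain 2 peaks 11376 were on long sequences, and of 14752 fat body 2 peaks 14469. For brain 1 it was 36296 of 36420 and for fat body 1 106625 of 107057.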

How the results depend on the processing

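Of 78 values recomputed under other settings (leaving out a library apart), 58 stayed within 1.5 times for counts, the interval, or the SD between the number 2 lists for widths and percentiles, and 20 moved. With a −log10 q of at least 10 in the number 2 lists there were 2761 members, 96803 bp apart, with median percentiles of 72.8 and 72.0 and summits 72 bp apart; the higher percentiles follow from the stricter choice. With no number 1 peak allowed within 1 kb there were 2379 members, with a median distance of 2017 bp and gap of 107723 bp, by construction. With the 11572 best peaks of each list the distance was 11002.5 bp, since fewer number 1 peaks were kept, the gap 46628.5 bp and the percentiles 61.1 and 64.2. With 50% coverage the distance was 617 bp, the gap 45041 bp and the brain 2 percentile 57.3. With windows around summits the width was 576 bp, the gap 64251 bp and the summit distance 76 bp. With every list held to a −log10 q of 5 or more, the gap was 61742 bp and the brain 2 percentile 57.0. For the last 3 settings the cause was not tested. The density ratio, the end share, the correlation with length and the middle share stayed within their intervals in each of these settings; the last 2 were added after the positions were seen.

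Leaving out 1 library gave from 4747 to 8614 regions (8614 without brain 2) and widths of 551.5 to 667 bp. Distances were 1086 to 4047 bp (4047 without fat body 1, the longest list) and gaps 31404.5 to 55900 bp. Percentiles were 50.3 to 55.0 in brain 2 and 45.2 to 58.1 in fat body 2, and summit distances 82 to 87 bp. Without brain 2 or fat body 2 the rule required only the other number 2 list, so such regions need not be shared by both tissues. The gap was 31404.5 bp without brain 2. The r with length ran from -0.16 to 0.050, turning sign without brain 2. No paired analysis was possible because the replicate number is part of the rule and no result comes from a test. Absence from a peak list is not absence of reads, and read depth is not known.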

Other observations

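Regions of fat body 2 alone, 4027 on the long sequences, were close to the members in their middle share and differed in width. They had 14.6% in the middle 20% of their sequences (13.5 to 15.7), against 13.8% of members. Their r with sequence length was 0.21, against -0.13. Within 1 Mb of an end lay 13.2% of them (12.2 to 14.3), against 11.5% of members (10.6 to 12.5). Their median width was 811 bp (799 to 822), above the 638 bp of the members, and 24.5% were under 400 bp. Regions of brain 2 alone numbered only 380, with a median width of 392 bp and 15.8% in the middle 20% (12.3 to 19.9). None of these differences was tested.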
